A study of Mus musculus with 2 samples.

Results

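Metallothioneins are small, cysteine-rich proteins that bind zinc, copper and cadmium and buffer the free metal of the cell. Mt1 and Mt2 are made in many tissues and are induced by metals, through the zinc-sensing factor MTF1, and by glucocorticoids and oxidative stress. Mt3 is known mainly from the nervous system, where it is called growth inhibitory factor, and Mt4 from stratified epithelia.

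Counts of Mt1, Mt2 and Mt3 were examined by cell type in single-cell RNA-seq of the dental pulp, the soft tissue of the tooth that carries its vessels and nerves. The rule named the 3 symbols among 31053 genes and took their rows from both count tables. It was chosen because Mt3 differed in opposite directions in mural cells, the cells that wrap vessels, and in glia, the cells that ensheathe nerves. The Mt3 differences in those classes and their clusters are therefore given as a description of what was selected. Mt1 and Mt2 were not used for that choice. The annotation holds 1 further family member, Mt4, which had 3 UMIs in the control and 1 in the knockout library in myelinating Schwann-like cells.

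The study holds 2 libraries of C57BL/6 mice at postnatal day 12, 1 from control mice and 1 from mice labelled Vegfr2 knockout, described in the design as endothelial. Vegfr2 is the main receptor for vascular endothelial growth factor A and is encoded by Kdr. The allele, the Cre driver, the genotype of the controls and the number of animals behind each library are not given in the sources used here. Both libraries were 10x Genomics 3' libraries of enzyme-dissociated cells sorted as negative for propidium iodide, a dye that enters dead cells.

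With 1 library per genotype there was no replicate check, so no test was made. Every interval is a 95% interval for counting error alone, and genotype cannot be told apart from anything else that differed between the libraries. The control library kept 2309 cells with a median of 12198 unique molecular identifiers (UMIs, counted transcript molecules), and the knockout library 1679 cells with a median of 8293. Of the cells that could be assigned by Xist or Y-linked genes, 16.1% were Y-positive in the control and 33.9% in the knockout library. The software also differed, Cell Ranger 5.0.0 for the control and 6.0.1 for the knockout table, and 3 cell barcodes occurred in both libraries. Levels are given as CPM, the UMIs of a gene scaled to 1000000 UMIs of the same cells. In endothelial-like cells the targeted gene, Kdr, was at 1090 CPM in the control and at 650 CPM after the knockout, with a knockout over control ratio of 0.596 (0.550 to 0.646), although 3' counts say nothing of a deleted upstream exon.

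Cells were clustered without the 4 metallothionein genes, and clusters were named from marker genes. Mural-like cells comprised a cluster led by Spp1 with the pericyte markers Higd1b, Kcnj8 and Abcc9, called pericyte-like here, and a cluster led by Myh11, Acta2 and Lmod1, called smooth muscle-like. Glia-like cells comprised a myelinating Schwann-like cluster led by Sfrp5, Ncmap and Drp2, a cluster led by Nipal1 and Pou3f1, a cluster led by the non-myelinating markers Scn7a and Gfra3, and a small cycling cluster led by Prc1. Of the 24 clusters, 5 stayed unnamed. The largest of these, led by Opcml and Col9a1, held 6.84% of control and 2.50% of knockout cells, and a cluster led by Pcp4 held 5.07% and 1.31%. Those 2 and the cycling cluster led by Pimreg (1.26% and 0.357%), the cycling cluster led by Hist1h2ap (1.78% and 2.03%) and the low-depth cluster led by Ltbp1 (0.780% and 0.596%) entered no class.

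The 4 genes lie side by side on the plus strand of chromosome 8 (GRCm38, GENCODE vM21), in the order Mt4, Mt3, Mt2 and Mt1, within 43131 bases. Mt3 (ENSMUSG00000031760) spans chr8:94152607-94154146, Mt2 (ENSMUSG00000031762) chr8:94172664-94173568 and Mt1 (ENSMUSG00000031765) chr8:94179082-94180327. Each is protein-coding, with 3 exons in its first listed transcript. Only 5513 bases separate Mt2 from Mt1, against 18517 between Mt3 and Mt2. No stretch of 31 bases was shared between transcripts of any pair of the 4 genes, so reads of that length could be told apart. Mt2 shared 3 of its 573 such stretches with Pip5k1a.

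The upstream sequences are shown because Mt1 and Mt2 differed in the same direction within glia and Mt3 in the other. Each is the stretch of 250 bases before the RefSeq start on the plus strand of GRCm38.p6, at chr8:94178839-94179088 for Mt1, chr8:94172368-94172617 for Mt2 and chr8:94152357-94152606 for Mt3, and all 3 genes were matched by symbol. Capitals mark matches to the core of the metal response element, searched as TGCACNC and TGCGCNC on both strands, where N is any base.
Mt1: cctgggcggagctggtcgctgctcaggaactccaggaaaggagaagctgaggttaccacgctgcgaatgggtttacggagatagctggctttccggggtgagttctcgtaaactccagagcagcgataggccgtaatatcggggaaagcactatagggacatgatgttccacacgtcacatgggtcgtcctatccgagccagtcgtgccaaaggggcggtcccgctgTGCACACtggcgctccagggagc
Mt2: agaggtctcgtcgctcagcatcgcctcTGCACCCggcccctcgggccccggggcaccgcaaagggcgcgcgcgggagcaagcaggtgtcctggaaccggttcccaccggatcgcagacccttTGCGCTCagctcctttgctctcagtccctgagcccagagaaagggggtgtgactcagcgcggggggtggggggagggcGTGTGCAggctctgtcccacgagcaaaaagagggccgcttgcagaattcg
Mt3: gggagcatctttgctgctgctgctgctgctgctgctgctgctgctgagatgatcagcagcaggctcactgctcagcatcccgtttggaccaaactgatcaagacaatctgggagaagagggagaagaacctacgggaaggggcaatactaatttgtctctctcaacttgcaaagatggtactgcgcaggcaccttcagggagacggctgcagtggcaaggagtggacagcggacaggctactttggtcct

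The Mt2 window held 3 cores, starting 223, 128 and 50 bases before the start, the Mt1 window 1 core 23 bases before it, and the Mt3 window none. Among 32851 RefSeq promoter windows of this length, 10.4% held TGCACNC, 12.5% TGCGCNC, 21.4% either and 1.26% at least 3 cores. The antioxidant response core TGACNNNGC was found once, in Mt2, and in 10.2% of windows. The hypoxia response core ACGTG was found once, in Mt1, and in 16.6% of windows. These matches describe letters in a window and say nothing of binding. The RefSeq starts used are not the GENCODE gene starts for Mt1 and Mt2. The Mt1 window ends at 94179088, past the gene start of 94179082, and the Mt2 window at 94172617, before 94172664. The counts hold for these windows only, since other starts of the genes and bases further downstream were not searched.

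The 3 genes were unevenly spread over the pulp, as the plot of levels by class shows. In the control library Mt1 was at 455 CPM in glia-like cells, 296 in dendritic-like cells, 126 in macrophage or monocyte-like cells and 65.0 in mural-like cells. It was at 8.10 CPM in pulp mesenchyme-like and 4.14 in endothelial-like cells, whose intervals overlap, whereas those of the 4 higher classes do not. In the knockout library the order of the top pair was exchanged, with 741 CPM in dendritic-like and 436 in glia-like cells, followed by 206 in macrophage or monocyte-like and 69.1 in mural-like cells.

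Mt2 was also highest in glia-like cells and next in dendritic-like cells, but it was low in macrophage or monocyte-like cells of the control library. It was at 95.6 CPM in control glia-like cells, 33.4 in dendritic-like and 10.4 in mural-like cells, and at 1.15 CPM or below in macrophage or monocyte-like, pulp and endothelial-like cells. In the knockout library Mt2 was at 87.9 CPM in glia-like, 52.5 in dendritic-like, 9.82 in macrophage or monocyte-like and 7.07 in mural-like cells, the last pair with overlapping intervals.

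Mt3 was narrower. It stood at 179 CPM in control glia-like and 100 CPM in control mural-like cells, and at 5.79 CPM in endothelial-like, 2.46 in pulp mesenchyme-like, 0.633 in dendritic-like and 0.383 in macrophage or monocyte-like cells. In the knockout library it was at 572 CPM in glia-like cells and 22.0 CPM in mural-like cells. A Mt3 UMI, which free RNA can also give, was seen in 1 of 218 control and 0 of 233 knockout macrophage or monocyte-like cells, and in none of the 36 and 37 neutrophil-like cells.

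**Figure D1:**
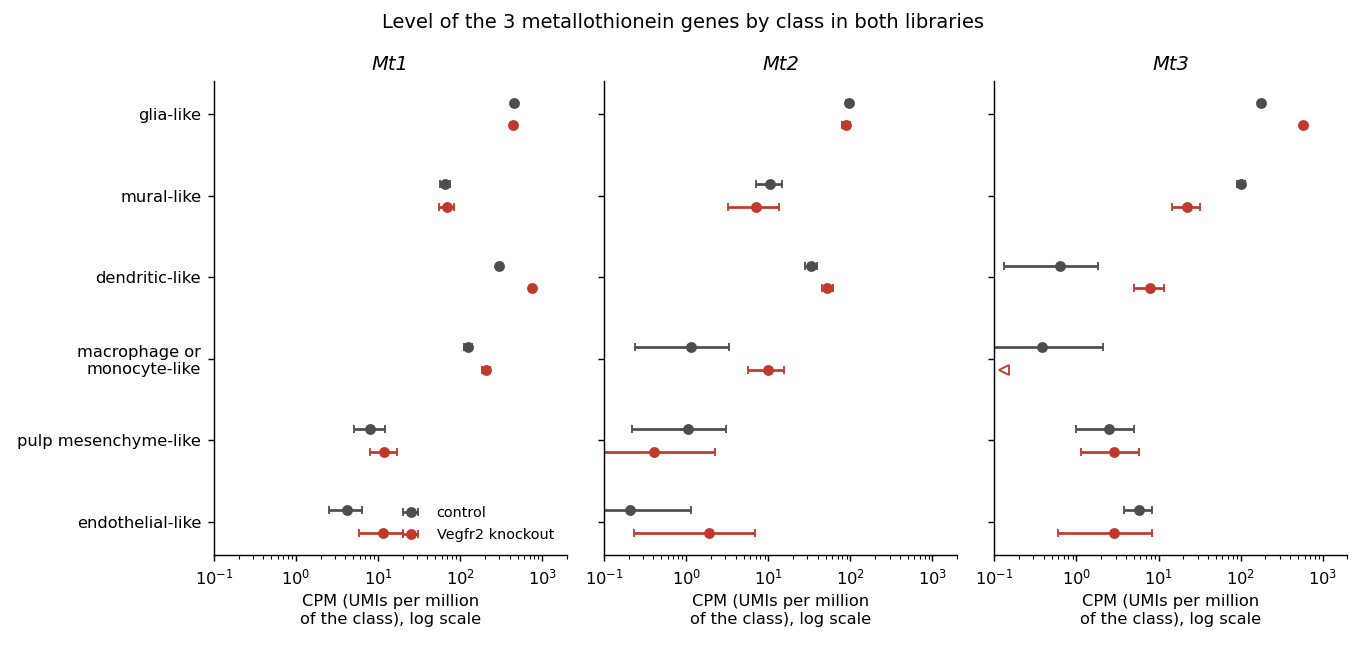
Level of Mt1, Mt2 and Mt3 in 6 classes, as CPM on a log axis, in the control (grey) and Vegfr2 knockout (red) library. Bars are exact 95% Poisson intervals for counting error, some cut at the left edge of the axis, and the open arrow marks a class with 0 UMIs. Glia-like cells had the highest Mt2 and Mt3 in both libraries, and Mt3 in mural-like cells was at 100 and 22.0 CPM.

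A single cluster held most of the Mt3 UMIs. The myelinating Schwann-like cluster made up 4.20% of control cells and 68.9% of the Mt3 UMIs of that library, and 8.22% of knockout cells and 93.6% of its Mt3 UMIs. The same cluster held 38.0% and 27.3% of Mt1 UMIs and 53.1% and 53.4% of Mt2 UMIs. Mural-like cells held 21.8% of Mt3 UMIs in the control library but 1.35% in the knockout library. The largest holder of Mt1 in the knockout library was a dendritic-like cluster led by Bcl2a1d and Cd83, with 51.1% of Mt1 UMIs, against 21.5% in the control library.

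In mural-like cells, whose Mt3 was one of the values that chose the genes, Mt3 was lower in the knockout library. The summed level of Mt1 was not, but it rested on few knockout cells. Mt3 had 329 UMIs in 264 control cells and 28 UMIs in 163 knockout cells, or 100 CPM (interval 89.8 to 112) against 22.0 CPM (14.6 to 31.8). The knockout over control ratio was 0.219 (0.143 to 0.323). For Mt1 the levels were 65.0 and 69.1 CPM, with a ratio of 1.06 (0.820 to 1.37). Cells with a Mt1 UMI made up 32.6% of control and 18.4% of knockout cells, and 5 cells held 58.0% of the knockout UMIs. Without the 5 cells highest in Mt1 in each library its ratio was 0.631. For Mt2, with only 34 and 9 UMIs, the ratio was 0.681 (0.287 to 1.45). Of all 10556 genes with at least 20 UMIs in these cells, 11.0% were at least 1.5-fold lower and 10.9% at least 1.5-fold higher in the knockout library. Mt3 was the 1 member of 3 past that limit, and since it was chosen on this contrast nothing is read from the count.

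The Mt3 of mural-like cells sat in few cells. A Mt3 UMI was found in 50 of 264 control cells (18.9%) and in 11 of 163 knockout cells (6.75%), with 48.3% of the control UMIs in 5 cells. When each cell was thinned to 2000 UMIs, which evens out the unequal depth, 25 of 259 control and 6 of 150 knockout cells had one. In endothelial-like cells, sorted from the same suspension, the unthinned shares were 2.06% and 2.19%, at median depths of 9703 and 6185 UMIs against 11334.5 and 7850 in mural-like cells.

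In the control library 228 of the 329 Mt3 UMIs were in the pericyte-like cluster, whereas in the knockout library 21 of 28 were in the smooth muscle-like cluster. In the pericyte-like cluster Mt3 stood at 283 CPM (interval 248 to 323, 80 cells) in the control library and at 20.4 CPM (8.21 to 42.1, 7 UMIs, 44 cells) in the knockout library. Among these, 21 control and 2 knockout cells had a Mt3 UMI, and the highest control cell had 61. No metallothionein ratio is given, since the knockout library had fewer than 50 such cells. Mt1 in the same cluster was at 147 CPM (121 to 176) and 67.1 CPM (42.5 to 101), and Mt2 at 28.6 and 23.3 CPM with overlapping intervals. In the 80 control cells Mt1 and Mt3 ran together (Spearman rho 0.49 of UMIs per 10000), with 17 of 21 Mt3-positive cells also holding Mt1.

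In the smooth muscle-like cluster, with 184 control and 119 knockout cells, Mt3 was at 40.9 and 22.6 CPM, a ratio of 0.552 (0.328 to 0.890). That ratio was 0.135 with up to 20% mitochondrial UMIs (118 and 6 UMIs), 0.151 in Y-positive cells and 0.191 without the 5 cells highest in Mt3 in each library. Mt1 was higher there, at 38.4 and 69.9 CPM, a ratio of 1.82 (1.31 to 2.52), against 12.3% of genes at least 1.5-fold higher and 11.1% at least 1.5-fold lower. Fewer knockout cells held it, 16.8% against 27.7%, and 70.8% of the knockout UMIs came from 5 cells. Without the 5 cells highest in Mt1 in each library the ratio was 0.701, so the direction rested on those cells, and at Leiden resolution 2 it was 3.19 on 16 and 28 UMIs.

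The 2 mural clusters were not alike in make-up between the libraries. In the pericyte-like cluster the smooth muscle genes Acta2 and Tagln were at 106 and 46.0 CPM in the control library but at 2541 and 1777 CPM in the knockout library. The pericyte markers Kcnj8 (687 and 691 CPM), Abcc9 (906 and 791 CPM) and Rgs5 (13480 and 14569 CPM) had ratios between 0.873 and 1.08, while Higd1b (185 and 309 CPM) and Kcnk3 (17.4 and 90.4 CPM) were higher in the knockout library. In the smooth muscle-like cluster Acta2 was at 4269 and 4489 CPM. The part of this difference in the metallothionein values was not tested.

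Glial markers were not lower in the mural-like cells of the knockout library. Their summed level over 10 genes was 133 CPM in the control and 154 CPM in the knockout library, with Sox10 at 0 in the control and Foxd3 at 0 in the knockout library. At least 2 glial markers were seen in 8 of the 50 Mt3-positive and 52 of the 214 Mt3-negative control cells. The summed endothelial markers stood at 267 and 305 CPM, and at least 2 of them were seen in 22 of the 50 Mt3-positive (44.0%) and 66 of the 214 Mt3-negative (30.8%) control cells. In the pericyte-like cluster of the control library these were 12 of 21 Mt3-positive (57.1%) and 13 of 59 Mt3-negative cells (22.0%). In the smooth muscle-like cluster they were 10 of 29 (34.5%) and 53 of 155 (34.2%). No setting left out cells with endothelial markers, and the part of endothelial RNA in the Mt3 value was not tested. Dropping every mural-like cell with UMIs of at least 2 glial markers left a Mt3 ratio of 0.275.

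In glia-like cells, the other class on which Mt3 was selected, Mt3 was at 179 CPM (interval 169 to 190, 1075 UMIs, 453 cells) in the control and at 572 CPM (547 to 597, 2004 UMIs, 388 cells) in the knockout library. The ratio was 3.19 (2.96 to 3.44). Mt1, at 455 and 436 CPM, had a ratio of 0.956 (0.898 to 1.02), and Mt2, at 95.6 and 87.9 CPM, a ratio of 0.919 (0.798 to 1.06). Of 11519 genes measured in glia-like cells, 9.92% were at least 1.5-fold higher and 9.63% at least 1.5-fold lower, and Mt3 was the 1 member past that limit.

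These class values mixed clusters whose shares differed. Myelinating Schwann-like cells made up 21.4% of control and 35.6% of knockout glia-like cells, and carried 22.4% and 42.2% of the UMIs of the class. When the 4 glial clusters were given the weights they had in the control library, the ratios became 1.75 for Mt3, 0.638 for Mt1 and 0.558 for Mt2. The near-equal Mt1 and Mt2 of the whole class therefore did not hold within its 3 larger clusters.

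In the myelinating Schwann-like cluster Mt3 was higher and both Mt1 and Mt2 were lower in the knockout library. Mt3 stood at 774 CPM (1039 UMIs, 97 cells) and 1310 CPM (1938 UMIs, 138 cells), with a ratio of 1.69 (1.57 to 1.83). Mt1 stood at 1380 and 825 CPM, with a ratio of 0.598 (0.556 to 0.643). Mt2 stood at 311 and 185 CPM, with a ratio of 0.594 (0.508 to 0.693). The Mt2 ratio was 0.919 at a limit of 5% mitochondrial UMIs, which left 19 cells in each library, and 0.341 in Y-positive cells (15 and 47 cells). In this cluster 7.75% of 8853 genes were at least 1.5-fold lower and 10.9% at least 1.5-fold higher.

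The difference was spread over the cells rather than held by a few, as the plot of single cells shows. The median myelinating cell had 9.91 Mt1 UMIs per 10000 in the control and 5.23 in the knockout library. Its Mt3 was 5.14 and 9.80, and its Mt2 1.38 and 0.893. Cells with a Mt3 UMI made up 72.2% and 83.3%, and 48.5% and 70.5% after thinning. The 5 highest cells held 21.9% and 14.8% of the Mt3 UMIs.

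**Figure D2:**
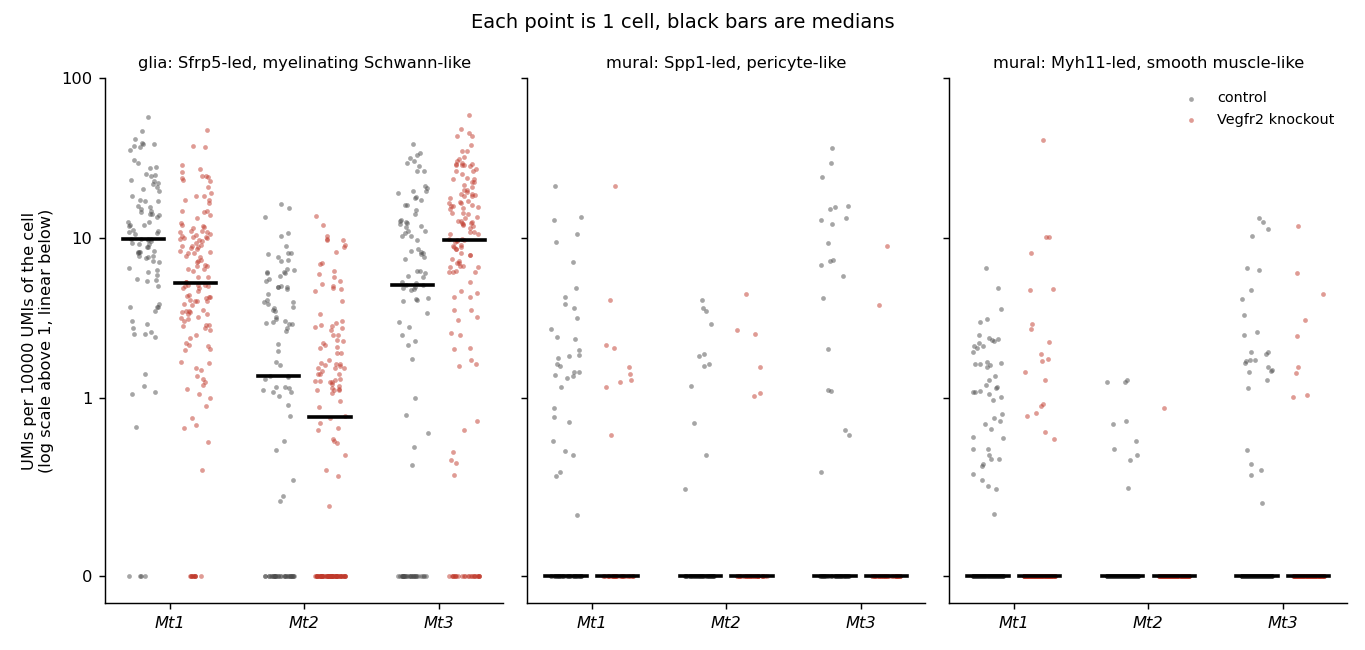
UMIs of each gene per 10000 UMIs of the cell in the myelinating Schwann-like cluster (left), the pericyte-like cluster (middle) and the smooth muscle-like cluster (right), 1 point per cell, control in grey and knockout in red, with black bars at the medians. The axis is linear below 1 and logarithmic above. In myelinating cells the median of Mt1 was 9.91 and 5.23 and that of Mt3 5.14 and 9.80, while in both mural clusters every median was 0.

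Mt1 and Mt2 varied together from cell to cell in the myelinating cluster, and Mt3 did so less. Spearman's rho of Mt1 and Mt2 was 0.74 over 97 control cells and 0.47 over 138 knockout cells. For Mt1 and Mt3 it was 0.20 and 0.08, and for Mt2 and Mt3 0.14 and 0.22. These cells share a library, and rho of each gene with the depth of the cell lay between -0.11 and 0.19. Of the UMIs of Mt2 and Mt1 together, Mt2 took 18.4% in the control (417 of 2268) and 18.3% in the knockout library (273 of 1493). Of the UMIs of Mt3 and Mt1 together, Mt3 took 36.0% and 61.4%.

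The myelin genes given here differed less than the metallothioneins in the same cells. The myelin protein genes Mbp and Pmp22 were at 8287 and 17994 CPM in the control and at 9903 and 17404 CPM in the knockout library, ratios of 1.20 and 0.967. Prx had a ratio of 0.988, and Mag, Ncmap, Drp2 and Pllp lay between 0.921 and 1.19. Mural markers in this cluster summed to 413 and 460 CPM, with Higd1b at 0 in both libraries and Tagln at 298 and 296 CPM. Median depth was 13648 and 11005 UMIs and median mitochondrial share 6.37% and 6.71%.

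Mt1 and Mt2 were also lower in the clusters led by Scn7a and Nipal1. In the small cycling cluster led by Prc1, with 41 and 12 cells, Mt1 was at 69.4 and 61.5 CPM with overlapping intervals, and Mt2 had 1 UMI in each library. In the Scn7a-led cluster, with 220 control and 152 knockout cells, Mt1 was at 148 and 96.2 CPM, a ratio of 0.649 (0.516 to 0.810). Mt2 was at 27.4 and 11.2 CPM there, a ratio of 0.409 (0.201 to 0.763). Both lay beyond the 1.5-fold limit, against 8.68% of genes at least 1.5-fold lower and 12.7% at least 1.5-fold higher. Mt3 had 0 UMIs in the control library, which allows up to 1.25 CPM, and 1 UMI in the knockout library.

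In the Nipal1-led cluster, with 95 and 86 cells, Mt1 was at 322 and 245 CPM, a ratio of 0.761 (0.640 to 0.902). Here 5 cells held 39.7% of the control and 28.4% of the knockout Mt1 UMIs, and 1 control cell held 75 of 468. The ratio without those cells was not computed. Mt2 was at 61.2 and 27.8 CPM, a ratio of 0.454 (0.271 to 0.730). Mt3 was at 22.7 and 82.0 CPM, a ratio of 3.62 (2.34 to 5.68), on 33 and 65 UMIs in 12 and 14 cells. Here 9.52% of genes were at least 1.5-fold lower and 11.9% at least 1.5-fold higher. Myelinating markers of this cluster were also higher in the knockout library, with Mbp at 2111 and 3920 CPM and Pmp22 at 4213 and 5901 CPM. Ratios of Prx, Mag, Ncmap, Drp2 and Pllp ran from 1.17 to 1.76, and the part of these genes in the Mt3 value was not tested.

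**Figure D3:**
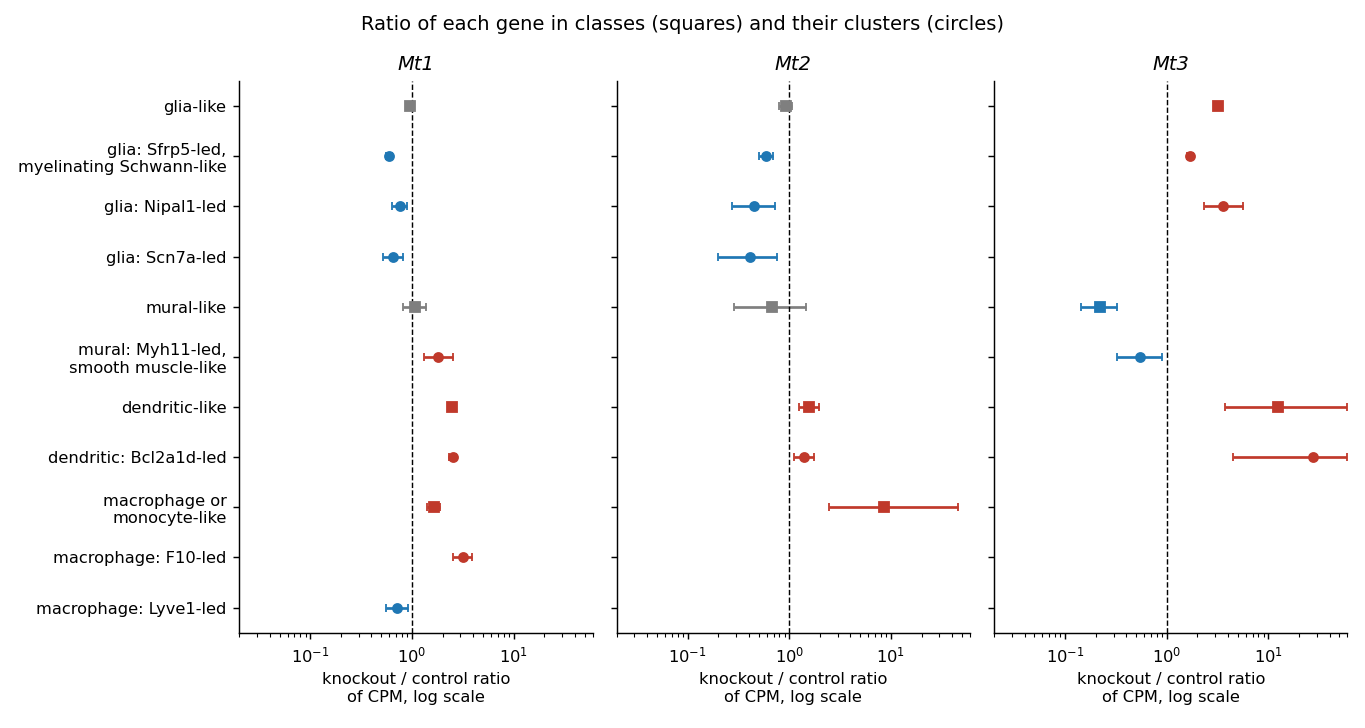
Knockout over control ratio of the CPM of each gene on a log axis, in 4 classes (squares) and in their clusters with at least 50 cells in each library (circles). Bars are exact 95% intervals for counting error, cut at the right edge where they pass 60; blue intervals lie below 1, red above 1 and grey include 1. Within glia the ratios of Mt1 and Mt2 lie below 1 in the 3 clusters shown, from 0.409 to 0.761, and those of Mt3 above 1, at 1.69 and 3.62.

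Immune classes had more Mt1 in the knockout library. In dendritic-like cells Mt1 was at 296 CPM (1401 UMIs, 264 cells) in the control and at 741 CPM (2359 UMIs, 260 cells) in the knockout library, a ratio of 2.50 (2.34 to 2.68). Mt2 was at 33.4 and 52.5 CPM, a ratio of 1.57 (1.26 to 1.97), which was 1.07 in Y-positive and 2.39 in Xist-positive cells. Of 10274 genes, 9.59% were at least 1.5-fold higher and 13.2% at least 1.5-fold lower, and the median gene was lower by 0.11 on the log2 scale. Relative to that median the ratios were 2.69 and 1.69. Mt3 had 3 and 25 UMIs, but 22 of the 25 came from 1 cell, and the median over its positive cells was 1 UMI in either library.

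The dendritic-like cluster led by Bcl2a1d, with Cd83 and Ptgs2 among its leading genes, carried this difference. No dendritic marker was among its leading genes, though 6 of the 8 were seen in at least 10% of its cells. When each cell was instead named from its own markers, only 45 control and 44 knockout cells were dendritic-like, with a Mt1 ratio of 1.80. With 136 control and 164 knockout cells, the Bcl2a1d-led cluster had Mt1 at 413 and 1040 CPM, a ratio of 2.52 (2.34 to 2.71). Its Mt2 was at 54.0 and 75.7 CPM, a ratio of 1.40 (1.11 to 1.77). The median cell had 2.32 and 4.69 Mt1 UMIs per 10000. The limits were passed by 9.64% of genes upwards and 18.9% downwards, and its median gene was lower by 0.16 on the log2 scale. The share of this cluster in the class was 51.5% and 63.1% of cells. In the cluster led by Cd209b, with only 36 knockout cells, Mt1 was at 223 (200 to 248) and 158 CPM (116 to 211). In that led by Clec9a, with 41 control and 60 knockout cells, Mt1 was at 27.4 and 44.7 CPM, on 19 and 31 UMIs.

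Macrophage or monocyte-like cells had Mt1 at 126 and 206 CPM, a ratio of 1.63 (1.40 to 1.90), with 10.6% of genes at least 1.5-fold higher and 12.8% at least 1.5-fold lower. Mt2 had 3 UMIs in 218 control cells and 17 UMIs in 233 knockout cells, a ratio of 8.55 (2.47 to 45.6) that was 1.99 with each cell counted equally. The 2 clusters of the class went opposite ways for Mt1. In the F10-led cluster, with Lyz2 and Trem2 among its leading genes, Mt1 was at 61.0 and 192 CPM, a ratio of 3.15 (2.54 to 3.93), where 10.1% of genes were at least 1.5-fold higher and 18.0% at least 1.5-fold lower. In the cluster led by Lyve1 and Folr2, markers of tissue-resident macrophages, it was at 363 and 258 CPM, a ratio of 0.710 (0.550 to 0.910). The difference between these clusters was not tested.

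Few metallothionein UMIs were found elsewhere. In endothelial-like cells, where the receptor is the target, Mt1 had 20 UMIs in 388 control and 12 UMIs in 137 knockout cells, or 4.14 and 11.5 CPM, a ratio of 2.77 (1.24 to 5.95). Here 11.7% of genes were at least 1.5-fold higher and 13.8% at least 1.5-fold lower. In neutrophil-like cells Mt1 was at 6.38 (0.772 to 23.0) and 18.2 CPM (4.95 to 46.5), on only 2 and 4 UMIs. The part of free RNA in the endothelial value was not separated. Mt3 had 28 UMIs in control endothelial-like cells, 19 of them in 1 cell, and 3 in the knockout library. In pulp mesenchyme-like cells Mt1 was at 8.10 and 11.8 CPM, a ratio of 1.45 whose interval of 0.812 to 2.63 included 1.

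Genes of 5 lists, for metal handling, oxidative stress, glucocorticoid targets, hypoxia and tissue dissociation, were set beside the metallothioneins in mural-like and glia-like cells. Their counts stand against the shares of all measured genes given above, 10.9% higher and 11.0% lower in mural-like and 9.92% higher and 9.63% lower in glia-like cells. The metal handling list holds zinc, copper and iron transporters and storage proteins and MTF1. In mural-like cells 0 of its 25 measured genes were at least 1.5-fold higher and 4 at least 1.5-fold lower, near the share of all genes, with a median log2 ratio of -0.09 against 0.01 for all measured genes. The lowest were Cp, a copper-carrying ferroxidase, with a ratio of 0.234 on 22 and 2 UMIs, and the iron transporter gene Slc11a2, with 0.528 and an interval that included 1. In glia-like cells 1 of 26 was higher and 1 lower, with a median of 0.01. These were the zinc transporter genes Slc30a4, with 1.96 (1.34 to 2.87), and Slc39a11, with 0.380 on 18 and 4 UMIs.

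Mtf1 itself had ratios of 0.927 (0.509 to 1.62) in mural-like and 1.26 (0.939 to 1.69) in glia-like cells. Slc30a1, a zinc exporter gene that is a known target of MTF1, had 0.839 and 0.850, with intervals that included 1. Both were named for their role after their values had been seen.

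Oxidative stress and Nrf2 target genes were not higher in the knockout library. In mural-like cells 0 of 18 were higher and 3 lower (median log2 ratio -0.17), a share near that of all genes. The lowest were G6pdx at 0.353 (0.135 to 0.782) and Nqo1 at 0.460 on 28 and 5 UMIs, with an interval that included 1. In glia-like cells 0 of 18 were higher and 2 lower (median -0.13), namely Txn1, thioredoxin, at 0.609 (0.551 to 0.672), and Txnrd1, its reductase, at 0.655 (0.525 to 0.813).

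Glucocorticoid targets were higher in mural-like cells, in 12 of 14 measured genes, with a median log2 ratio of 1.14. The highest were Pdk4, a regulator of pyruvate use, at 4.50 (1.76 to 12.4) and Hif3a at 3.52 (2.14 to 5.83). The receptor gene Nr3c1 was at 125 and 120 CPM. Fkbp5, a widely used marker of receptor activity, was at 5.19 and 7.85 CPM, on 17 and 10 UMIs. Its ratio of 1.51 (0.62 to 3.50) passed the 1.5-fold limit, with an interval that included 1. In glia-like cells 6 of 13 were higher (median 0.42), led by Sult1a1 at 5.13 on 5 and 15 UMIs and Dusp1 at 2.83 (2.24 to 3.58).

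Hypoxia genes were higher in 8 of 17 in mural-like cells (median log2 ratio 0.56), led by Egln3 at 12.4 (4.62 to 41.5) and Ankrd37 at 2.51 (1.60 to 3.94). In glia-like cells 5 of 16 were higher and 1 lower (median 0.28). Bnip3 was at 1.80 (1.38 to 2.34) there. Pdk1, at 1.82 on 15 and 16 UMIs, and Pfkfb3, at 0.467 on 22 and 6 UMIs, had intervals that included 1.

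The list of genes induced by tissue dissociation had the highest medians of the 5 lists. In mural-like cells 15 of 18 passed the 1.5-fold limit upwards (median log2 ratio 1.28), led by Atf3 at 3.60 (2.70 to 4.82) and Hspa1a at 3.31 (2.98 to 3.68). In glia-like cells 8 of 18 were higher, with a median of 0.49, led by Fos at 3.52 (3.27 to 3.79) and Btg2 at 3.49 (2.73 to 4.49). Fos and Btg2 were also 2.99 and 2.86 times as high in mural-like cells. The part of these genes in the metallothionein values was not tested. Some glucocorticoid targets, Dusp1 among them, are also immediate-early genes.

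**Figure D4:**
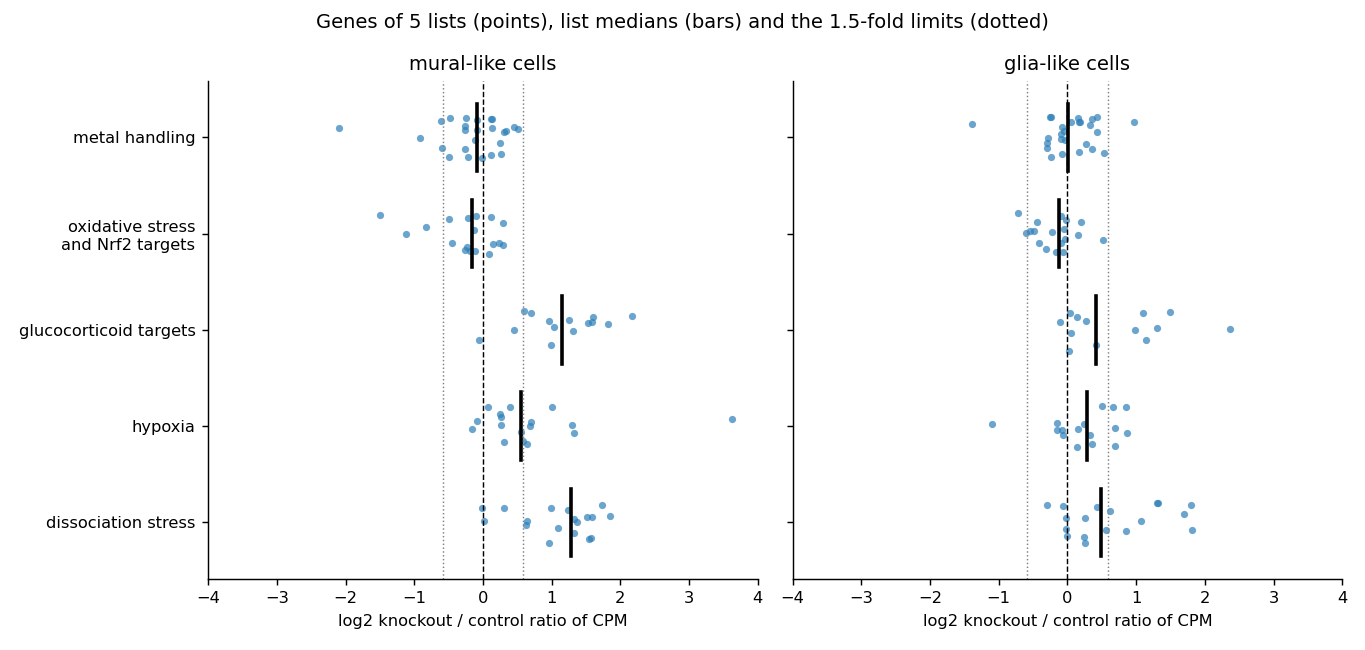
Log2 knockout over control ratio of each measured gene of 5 lists in mural-like (left) and glia-like (right) cells, with list medians as black bars and the 1.5-fold limits as dotted lines. Genes at 0 UMIs in a library are not drawn. Dissociation and glucocorticoid genes lie mostly to the right in mural-like cells, with medians of 1.28 and 1.14, whereas metal handling genes centre near 0.

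Over 12 points, the 6 classes in each library, the log2 level of Mt1 followed that of Mt2 (Pearson r 0.867) more than that of Mt3 (r 0.419), and r of Mt2 and Mt3 was 0.686. Points of 1 class share cell type and points of 1 library share depth. Among 11800 genes the patterns most like that of Mt3 were those of B3galt2 (r 0.982), Moxd1 (0.981), Art3 (0.974), Adamtsl5 (0.971) and Col28a1 (0.969). The most like Mt1 were Med30 (0.933), Fam129a, S100a4, Alcam and Slc9a3r1 (0.898). The most like Mt2 were Knl1 (0.955), Kifc1, Eef1d, Spag5 and Ccna2 (0.921). Knl1 is a leading gene of the cycling glial cluster led by Prc1, in which Mt2 had only 1 UMI in each library. The cycling clusters led by Pimreg and Hist1h2ap entered no class and so none of the points. The likeness to Mt2 is therefore one of class sums and not of the same cells.

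The direction of the Mt3 ratios was the same under each of the 16 other settings tried. These settings reuse largely the same cells of the same 2 libraries, on which Mt3 was chosen. The shared direction is therefore a description and no separate support. In glia-like cells the Mt3 ratio ran from 1.47 to 4.06 and in mural-like cells from 0.0999 to 0.315. The lowest glial value came from leaving out cells with UMIs of at least 2 mural markers, which kept 201 control and 210 knockout cells; Tagln, 1 of those markers, was counted in myelinating cells as given above. The Mt1 ratio of glia-like cells lay below 1 in 15 of 16 settings and that of mural-like cells above 1 in 9 of 16, as the plot of alternatives shows.

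**Figure D5:**
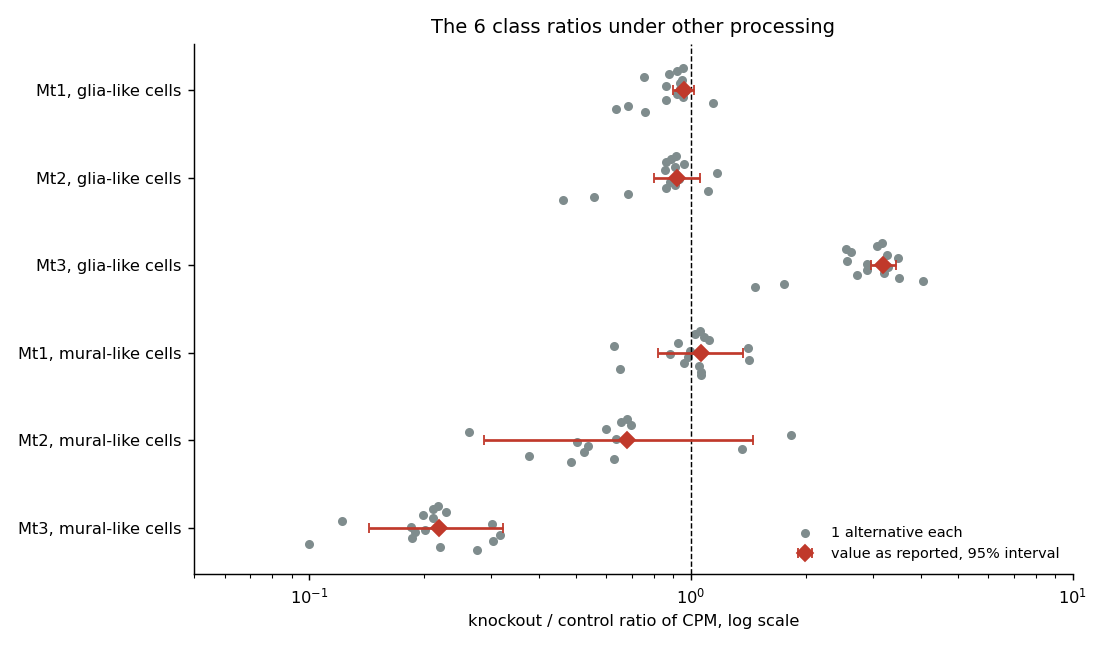
Knockout over control ratio of Mt1, Mt2 and Mt3 in glia-like and mural-like cells on a log axis, with the reported value and its exact 95% interval for counting error (red diamonds) and the value under each other setting (grey points). The Mt3 points of glia-like cells all lie above 1 and those of mural-like cells all below 1, from 1.47 to 4.06 and from 0.0999 to 0.315. Mt3 was chosen for these opposite directions, and the settings share most of their cells.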

How the data were processed

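The authors deposited counts: whole-number UMIs per gene and barcode for each library, unnormalised, written by Cell Ranger 5.0.0 (control) and 6.0.1 (knockout) per the file headers, on mm10 per the submitters' processing notes. Gene names and barcodes were read from the deposited lists. The matrices held 3487 and 2563 barcodes. Limits on a cell were 500 genes, 1000 UMIs (both minimums) and a mitochondrial share of up to 10%. Scrublet calls (20 and 4 cells) were removed as doublets, fewer than the expected 0.8% per 1000 cells, so doublets remain.

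Both libraries were clustered together with scanpy 1.11.5 (2000 variable genes, 30 components, 15 neighbours, Leiden resolution 1), without Mt1 to Mt4, Xist, Y-linked, mitochondrial, ribosomal and haemoglobin genes. A cluster took a class name from at least 3 markers in at least 10% of its cells. One with over 80% of another class's markers stayed unnamed; this limit was set after seeing the data.

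UMIs were summed per class and library and scaled to CPM. Ratios of the members, Kdr and list genes (numpy 2.4.6, scipy 1.17.1) carry exact conditional Poisson intervals and shares Clopper-Pearson intervals, at 95%. Those ratios needed at least 20 UMIs over both libraries and 50 cells in each. Ratios of cell type markers and ratios under other settings have no interval and no minimum of cells. Interval code was tested on simulated counts. Named genes were the members, the 5 most alike in pattern per member (log2 of CPM plus 10, at least 200 UMIs) and, per list, up to 2 highest and 2 lowest ratios past 1.5-fold. Members, lists and markers were chosen with earlier results of these data known. Annotation came from GENCODE vM21 and promoters from RefSeq. Beyond these promoter windows and the transcripts, no genome sequence was used here, and no protein sequence. One myelinating marker is not reported here.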

Additional observations from a re-analysis of the deposited data

Results flagged for a closer look

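Each member differed in opposite directions in different cells, with counting intervals that lie on opposite sides of 1. These differences between cell types were not tested. For Mt3 the opposite directions in mural-like and glia-like cells are those on which the genes were chosen, so they are no separate finding. For Mt3 the ratio was 3.19 in glia-like cells, 1.69 in the myelinating Schwann-like cluster and 12.4 in dendritic-like cells, the last resting on 1 cell with 22 of 25 UMIs, against 0.219 in mural-like cells and 0.552 in the smooth muscle-like cluster.

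For Mt1 the ratio was 2.50 in dendritic-like, 1.63 in macrophage or monocyte-like and 2.77 in endothelial-like cells and 1.82 in the smooth muscle-like cluster, against 0.598 in the myelinating Schwann-like cluster. For Mt2 it was 8.55 in macrophage or monocyte-like cells, on 3 and 17 UMIs and 1.99 with each cell counted equally, and 1.57 in dendritic-like cells, against 0.594 in the myelinating Schwann-like cluster.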

How the results depend on the processing

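In mural-like cells the Mt3 ratio moved beyond its interval under 2 of 16 other settings and in glia-like cells under 11 of 16. Each time it stayed on the same side of 1, on largely the same cells from which Mt3 was chosen. Without the 5 cells highest in each gene the mural ratios were 0.122 for Mt3, 0.262 for Mt2 and 0.631 for Mt1, the glial Mt3 ratio was 3.50, and the Mt1 ratio of the smooth muscle-like cluster turned to 0.701. In Y-positive cells alone, with 25 control and 59 knockout mural-like cells, Mt3 was at 0.0999 and Mt1 at 0.651 in mural-like cells, and the glial ratios were 4.06 for Mt3, 0.682 for Mt1 and 0.682 for Mt2. In Xist-positive cells the glial ratios were 3.50, 1.15 and 1.11. A limit of 5% mitochondrial UMIs gave 1.41 for Mt1 and 1.82 for Mt2 in mural-like cells, and 0.860 for Mt1, 1.17 for Mt2 and 2.56 for Mt3 in glia-like cells. A per-cell marker gate gave 1.42 for mural Mt1. In glia-like cells Mt3 was at 2.55 and Mt1 at 0.878 with each cell counted equally, at 2.62 and 0.755 after thinning, and at 2.72 and 0.860 at Leiden resolution 2. Glial Mt3 was at 2.89 with up to 20% mitochondrial UMIs and also at 2.89 with each library clustered on its own. Weighting clusters as in the control library gave 1.75 for Mt3, 0.638 for Mt1 and 0.558 for Mt2, and leaving out glia-like cells with at least 2 mural markers gave 1.47, 0.759 and 0.461. These last settings and that without 5 cells were chosen after seeing the data, and where values moved the cause was not tested.

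At 5% mitochondrial UMIs 1 cluster held all mural-like cells, so no value for either mural cluster was had. Some other settings left under 20 UMIs of a gene and gave none. Ratios on few UMIs, such as Mt2 in mural-like cells at 34 and 9, have wide intervals. In dendritic-like cells the Mt1 ratio ran from 1.80 to 3.15 and in macrophage or monocyte-like cells from 1.19 to 2.37 over the other settings. No paired analysis was possible because each genotype has 1 library and the result comes from no test.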
